A study of Mus musculus with 4 samples.

Results

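Collagen genes were taken as every gene of the count tables whose symbol reads Col, a number, the letter a and a number, one symbol for each collagen alpha chain. The rule found 44 genes among the 32285 listed. The sections came from wildtype mice and were flash-frozen. On Visium slides (10x Genomics) each section covers printed spots whose probes capture polyadenylated RNA and tag it with the spot's barcode, and each captured molecule is counted as 1 unique molecular identifier (UMI). One section each was given for oral mucosa on postoperative day 4, unwounded oral mucosa, facial skin on postoperative day 4 and unwounded facial skin. The labels give no strain, age or sex and do not state how many animals were used. The series asks how wounds in oral mucosa and in facial skin differ in repair, and its single-cell and bulk libraries and its other postoperative days were not analysed here. With 1 section per group there is no replicate spread, so no test was possible, and every interval given below is a 95% interval that covers counting error only, exact for levels and ratios and approximate for a difference of log2 ratios.

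Collagens are secreted or membrane-bound proteins built from 3 alpha chains wound into a triple helix. Fibrillar collagens assemble into the banded fibrils that give dermis and submucosa their tensile strength, type IV forms the sheet of basement membranes, type VI forms beaded filaments around cells, and fibril-associated collagens lie on the surface of fibrils. Types VII, XV and XVIII occupy the zone between basement membrane and stroma, and type XVII spans the membrane of basal keratinocytes. Fibroblasts are the main source of fibrillar collagen in skin and mucosa, and their output rises during the proliferative phase of wound repair. The 44 genes were sorted by this textbook grouping into 11 fibrillar, 6 type IV, 6 type VI, 3 network (types VIII and X), 9 fibril-associated, 3 basement membrane zone, 4 transmembrane and 2 other genes.

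The sections held 3004174 UMIs over 430 spots in day 4 oral mucosa, 7285023 over 1288 spots in unwounded oral mucosa, 9934290 over 1141 spots in day 4 facial skin and 11939479 over 671 spots in unwounded facial skin. Tissue content differed between them. The 12 skeletal muscle markers summed to 48551 CPM (counts scaled to the section total) in day 4 oral mucosa and 58176 CPM in unwounded oral mucosa, against 1053 CPM in day 4 facial skin and 1270.2 CPM in unwounded facial skin. The day 4 oral section also held salivary gland RNA, with 3997 CPM over 8 markers against 34.0 CPM in the unwounded oral section. Neutrophils are cells that enter wounds, yet their 8 markers summed to 281 CPM in day 4 facial skin and 6015 CPM in the section labelled unwounded facial skin. Leaving out its region of highest neutrophil markers (29 spots) lowered that sum only to 5414 CPM. Without the region no call of a measured collagen gene changed against day 4 facial skin or unwounded oral mucosa, single log2 ratios moved by at most 0.096 and class ratios by at most 0.019, and of the 5 lists of related genes described at the end 1 lost a call, with 5 in place of 6 fibril partners higher at day 4 in facial skin. What the neutrophil RNA left in the section does to these values was not tested. Both day 4 sections carried Xist UMIs (84 oral, 909 facial) and no Ddx3y UMI, while the unwounded sections carried 280 (oral) and 587 (facial) Ddx3y UMIs with 0 and 1 Xist UMI, so the animal's sex and wounding cannot be told apart. Spot barcodes name array positions, and any pair of sections shared between 46 and 347 of them.

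Collagen UMIs made up 0.571% of all UMIs in day 4 oral mucosa (17159 UMIs), 0.161% in unwounded oral tissue (11708), 1.10% in day 4 facial skin (109079) and 0.711% in unwounded facial skin (84893). By plain section totals the order was day 4 facial, unwounded facial, day 4 oral and unwounded oral, and no neighbours in that order had overlapping counting intervals. The middle of this order depended on the measure. Over spots with at least 1000 UMIs the median share was 0.469% in day 4 oral mucosa and 0.448% in unwounded facial skin. A UMI was recorded for 37 of the 44 genes in day 4 oral mucosa, 36 in unwounded oral mucosa and 40 in each facial section. Col9a1 and Col19a1, both fibril-associated chains, had 0 UMIs in every section. Their intervals reached up to 1.23 and 0.506 CPM in day 4 and unwounded oral mucosa, and 0.371 and 0.309 CPM in day 4 and unwounded facial skin. Col10a1, the hypertrophic cartilage collagen, had 1 UMI, in day 4 oral mucosa, and the cartilage chain Col9a2 had 1, in unwounded facial skin. Col2a1, the main cartilage fibrillar chain, had 7 UMIs, all in day 4 facial skin. Each captured transcript counts once in this assay whatever its length, so levels of different genes can be set side by side without a length scale, but capture can differ between genes.

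**Figure D1:**
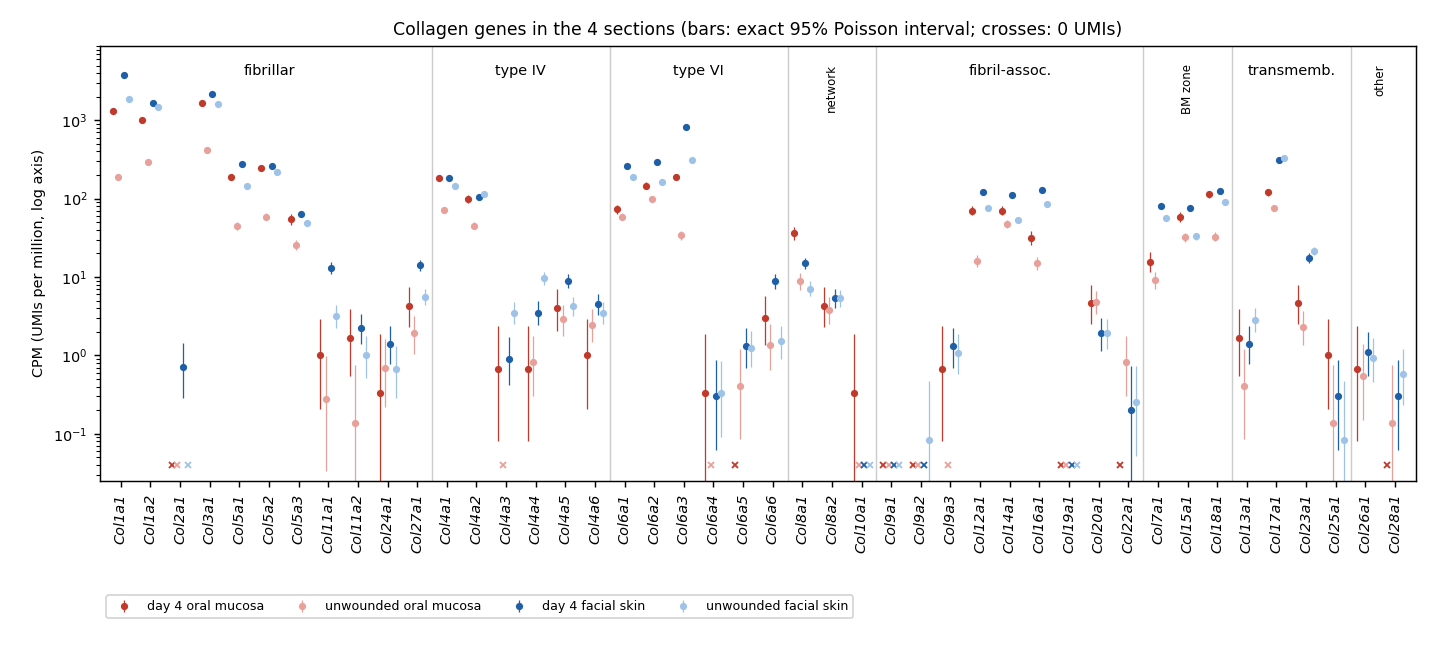
Level of each of the 44 collagen genes in the 4 sections, in CPM on a log axis, sorted by class. Points are single sections with exact 95% Poisson intervals and crosses mark genes with 0 UMIs. Col1a1, Col1a2 and Col3a1 stand highest in all 4 sections, and the unwounded oral section is lowest for most abundant genes.

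Comparisons were read as follows. To be called higher or lower, a gene needed a CPM ratio of 1.5 or more between the sections, intervals that stayed apart and 20 UMIs or more in the pair. Medians over genes used log2 ratios of CPM plus 10, and the median of all genes is set beside them. Where calls were repeated with another scaling or choice of spots, the share of all genes called was not computed again. Such counts show how the calls depend on the setting and are not read as results about collagen genes.

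In oral mucosa, day 4 tissue carried more collagen RNA than unwounded tissue in every class apart from the 2 genes outside the named classes. Summed collagen stood at 5712 CPM in the day 4 section and 1607 CPM in the unwounded section, a log2 ratio of 1.83 (1.80 to 1.86). Of the 44 genes, 25 reached the UMI minimum, 16 were called higher and 0 lower, where 20.6% of 12544 genes were called higher and 3.56% lower by the same rule. The median log2 ratio of the 25 genes was 0.75, against 0.17 over all genes. With 10 CPM added, the ratios of Col1a1, Col6a3 and Col3a1 were highest and those of Col4a6, Col20a1 and Col8a2 lowest, none of the last 3 called. Without it Col1a1 (2.78) and Col6a3 (2.48) were followed by Col12a1 (2.14). In fold terms Col1a1 was 6.88-fold higher at day 4. Leaving out 1 of 4 parts of either section moved the summed log2 ratio between 1.52 and 2.18. Parts 3 and 4 of the unwounded section held 565 and 818 of its 1391 Col1a1 UMIs. Leaving out part 1 or part 2 of that section could therefore hardly move its Col1a1 ratio. Scaling by the trimmed mean of M values (TMM) shifted every log2 ratio of this comparison by -0.34 and gave 1.49 with 13 genes higher. Leaving out part 2 of the day 4 section took Col12a1 to 0.50, Col6a2 to 0.41, Col16a1 to 0.32, Col15a1 to 0.30 and Col17a1 to 0.06, all short of 1.5-fold, and Col17a1 was at -0.01 when part 4 of the unwounded section was left out. Counted per UMI of 10 fibroblast markers that include no collagen, collagen was 2.68 in the day 4 section and 1.13 in the unwounded section, and 10 genes were then called higher. Fibroblast markers summed to 2129 CPM at day 4 and 1417 CPM in unwounded mucosa, with 3 of 10 called higher. Macrophage markers, 9 of 9 called higher, summed to 1376 CPM at day 4 and 356 CPM in unwounded mucosa. Neutrophil markers, 8 of 8 called higher, summed to 3787 CPM and 39.8 CPM there, and the part of these cells in the result was not tested. A change in the number of fibroblasts and a change in RNA per fibroblast cannot be told apart in sums over a section.

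In facial skin the day 4 section was also higher, by less. Summed collagen stood at 10980 CPM at day 4 and 7110.3 CPM in unwounded skin, a log2 ratio of 0.63 (0.61 to 0.64). Of the 44 genes, 35 reached the UMI minimum, 13 were called higher and 2 lower, where 6.09% of 14231 genes were called higher and 8.59% lower. The median was 0.32, against -0.03 over all genes. With 10 CPM added, the 3 highest ratios were those of Col6a3, Col1a1 and Col15a1 and the 3 lowest those of Col4a4, Col4a3 and Col23a1, whereas without it the rarer Col6a6 (2.55) and Col11a1 (2.05) stood highest and Col4a3 (-1.96), Col4a4 (-1.45) and Col13a1 (-1.01, not called) lowest. Of these, Col4a3 and Col4a4 were the 2 called lower. Leaving out the neutrophil-marker region of the unwounded section (29 spots) gave 0.62 and 15 calls, 13 higher and 2 lower. The value depended on the part of tissue used: it was 0.28 without part 2 of the day 4 section and 1.03 without part 3 of it, and 0.29 without part 2 and 1.03 without part 1 of the unwounded section. As a mean over spots it was 1.40, with 20 collagen genes called higher and 1 lower, counts that have no share of all genes beside them. Adipocyte markers (6 of 6 called higher, 604 CPM at day 4 and 250.3 CPM in unwounded skin) and suprabasal epithelial markers (5 of 8 higher and 1 lower, 42849 and 23324 CPM) moved with the comparison. Macrophage markers had 5 of 9 called lower (1193 CPM at day 4 and 1415 CPM in unwounded skin), and fibroblast markers 2 of 10 higher (2236 and 2257 CPM). Their part in the result was not tested. Leaving out 1 part of either section took Col14a1 to 0.54, Col8a1 to 0.54, Col6a2 to 0.52, Col5a1 to 0.45, Col16a1 to 0.30 and Col12a1 to 0.07 at the lowest, all short of 1.5-fold.

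Between unwounded tissues, summed collagen RNA was lower in oral mucosa than in facial skin. Summed collagen was 1607 CPM in oral mucosa and 7110.3 CPM in facial skin, a log2 ratio of -2.15 (-2.17 to -2.12). Of 30 genes with enough UMIs, 22 were called lower in oral mucosa and 1, Col20a1, higher, where 59.7% of 14026 genes were called lower and 10.1% higher. The median log2 ratio was -0.90 beside -0.47 over all genes, so -0.43 relative to them. TMM scaling shifted every ratio by 0.76, to a summed ratio of -1.38 with 16 genes lower and 3 higher, and per fibroblast-marker UMI the ratio was -1.47. Without the neutrophil-marker region of the facial section it was -2.16. All 12 skeletal muscle markers were called higher in oral mucosa, and in spots with under 1% of their UMIs the summed ratio was -2.14. Of 8 basal keratinocyte markers 7 were called lower in oral mucosa (summed 2798 CPM, against 14596 CPM in facial skin), as were 9 of 9 macrophage markers (356 CPM, against 1415 CPM in facial skin), and their part in the result was not tested. Without part 1 of the facial section Col4a1 (-0.48), Col5a3 (-0.42) and Col6a2 (-0.32) fell short of 1.5-fold.

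At day 4 the tissues lay closer. Summed collagen was 5712 CPM in oral mucosa and 10980 CPM in facial skin, a log2 ratio of -0.94 (-0.97 to -0.92). Among 29 genes with enough UMIs, 17 were called lower in oral mucosa and 1, Col8a1, higher, where 35.5% of 13633 genes were called lower and 11.5% higher. The median was -0.54, against -0.27 over all genes. TMM scaling shifted every ratio by 0.36, to a summed -0.58 with 10 genes lower and 2 higher, and spots with under 1% skeletal muscle marker UMIs, which held 51.0% of the UMIs in day 4 oral mucosa and 97.5% in day 4 facial skin, gave -0.71 with 12 lower and 1 higher. Leaving out 1 part of either section took Col1a2 to -0.40, Col14a1 to -0.20, Col8a1 to -0.17 and Col12a1 to -0.01 at the smallest, all short of 1.5-fold. The oral day 4 over unwounded log2 ratio exceeded the facial one by 1.20 (1.17 to 1.24), and this difference was 0.60 per fibroblast-marker UMI and 0.54 as a mean over spots.

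**Figure D2:**
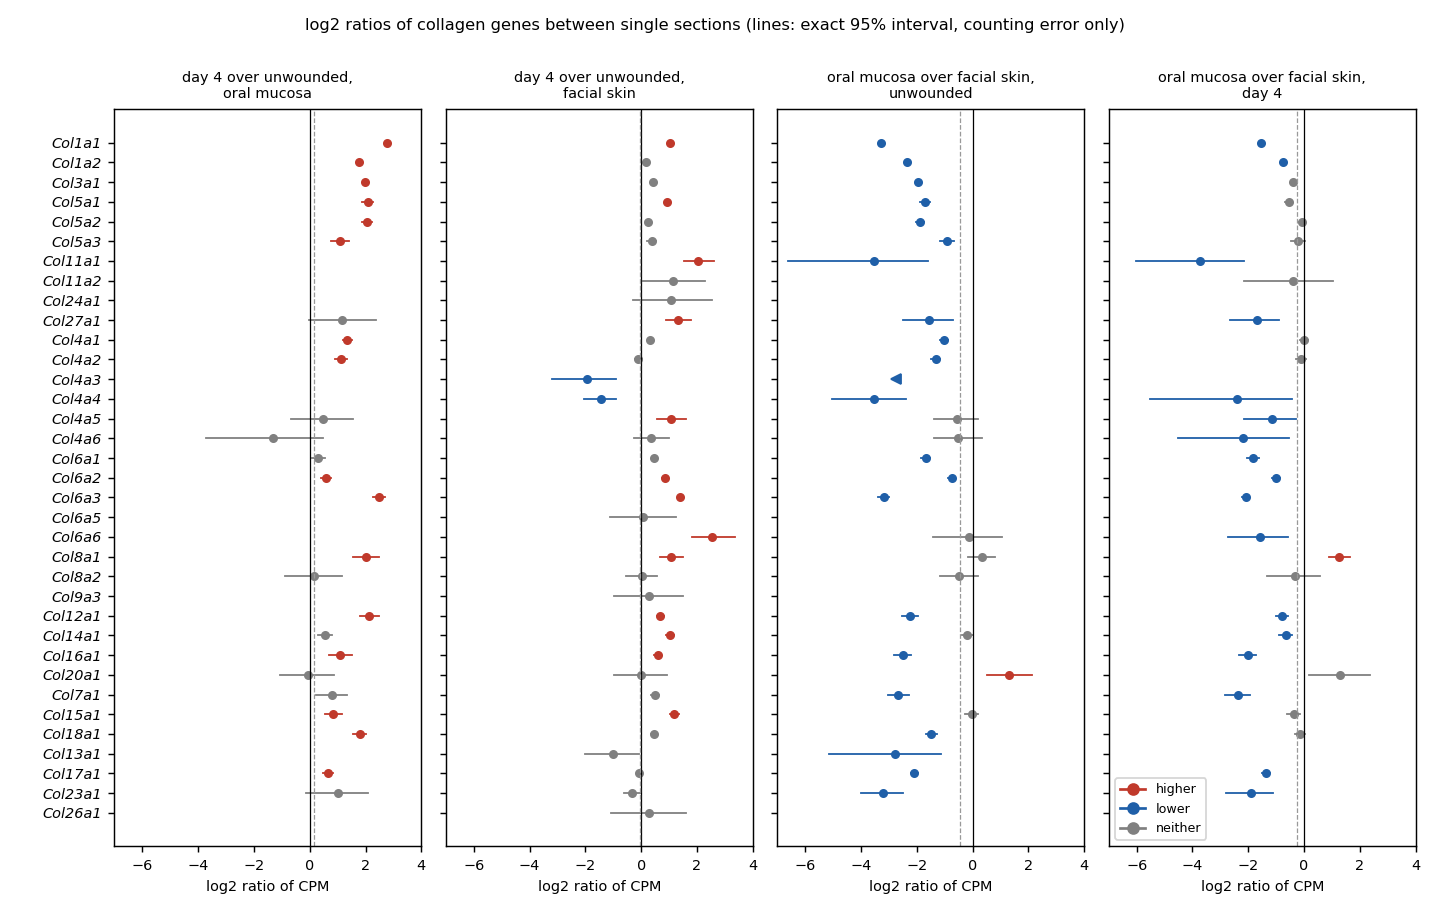
log2 ratios of CPM of the collagen genes with at least 20 UMIs in a comparison, in 4 panels: day 4 over unwounded in oral mucosa and in facial skin, and oral mucosa over facial skin unwounded and at day 4. Points are ratios of single sections, lines exact 95% intervals and dashed lines the median over all genes. In oral mucosa 16 of 25 genes were called higher at day 4 and 0 lower, where 20.6% of all genes were called higher and 3.56% lower. Between unwounded tissues 22 of 30 plotted genes were called lower in oral mucosa, where 59.7% of all genes were called lower.

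Classes differed in how far apart day 4 and unwounded tissue lay. In oral mucosa the summed log2 ratio was 2.11 for fibrillar, 1.68 for network, 1.34 for basement membrane zone, 1.23 for type IV, 1.10 for type VI, 1.08 for fibril-associated and 0.69 for transmembrane collagens. With 1 part left out it ran from 1.85 to 2.43 for fibrillar and 0.31 to 2.31 for network collagens. The ranges were 0.61 to 1.67 for type IV, 0.74 to 1.43 for type VI and 0.65 to 1.46 for fibril-associated collagens. Among these the fibrillar range overlapped only that of the network class, and the order of the others depended on the part used. In facial skin the order was another, with type VI first at 1.04, then fibril-associated 0.74, network 0.72, basement membrane zone 0.64, fibrillar 0.62, type IV 0.13 and transmembrane -0.09. The fibril-associated interval (0.67 to 0.81) lay above the fibrillar one (0.61 to 0.64), while those of the network class (0.41 to 1.03) and the basement membrane zone (0.55 to 0.72) overlapped both. With 1 part left out the facial ratio ran from 0.59 to 1.46 for type VI and 0.37 to 1.13 for fibril-associated collagens. For fibrillar collagens it ran from 0.25 to 1.07, so these ranges overlapped and the facial order depended on the part used. By called genes, oral mucosa at day 4 had 6 of 7 measured fibrillar, 2 of 4 type IV, 2 of 3 type VI, 1 of 2 network, 2 of 4 fibril-associated, 2 of 3 basement membrane zone and 1 of 2 transmembrane genes higher. Facial skin at day 4 had 4 of 10 fibrillar, 1 of 6 type IV (with 2 lower), 3 of 5 type VI, 1 of 2 network, 3 of 5 fibril-associated, 1 of 3 basement membrane zone and 0 of 3 transmembrane genes higher. By the same rule 20.6% of all genes were called higher at day 4 in oral mucosa. In facial skin 6.09% of all genes were called higher and 8.59% lower. The oral ratio exceeded the facial one by 1.48 in the fibrillar class, 1.10 in type IV, 0.96 in network, 0.78 in transmembrane, 0.70 in the basement membrane zone, 0.34 in fibril-associated and 0.06 in type VI collagens. Between unwounded tissues the oral section was lower by more in the fibrillar class (-2.37) than in type IV (-1.20), with network collagens at 0.03 (-0.36 to 0.42), a value that ran from -0.42 to 1.23 with 1 part of a section left out. At day 4 type VI was lowest in oral relative to facial tissue, at -1.74, while type IV stood at -0.10 (-0.21 to 0.01), and at -0.72 to 0.35 with 1 part left out.

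The fibrillar class held most of the collagen RNA, 78.3% of collagen UMIs in day 4 oral mucosa, 64.7% in unwounded oral tissue, 75.5% in day 4 facial skin and 75.8% in unwounded facial skin. Col1a1 encodes the alpha1 chain of type I collagen, the main collagen of dermal scar (GRCm38, chromosome 11, 94936224 to 94953042). It was 1315 CPM in day 4 oral mucosa, 191 CPM in unwounded oral mucosa, 3794 CPM in day 4 facial skin and 1845 CPM in unwounded facial skin. Its log2 ratio of day 4 over unwounded was 2.78 (2.69 to 2.87) in oral mucosa and 1.04 (1.02 to 1.06) in facial skin. Oral over facial it was -3.27 in unwounded tissue and -1.53 at day 4. Col1a2, the partner chain of the type I heterotrimer (chromosome 6, 4505618 to 4541543), was 995, 292, 1678 and 1489 CPM in the same order of sections. Its oral ratio was 1.77 (1.69 to 1.85), while its facial ratio of 0.17 (0.14 to 0.20) did not reach the 1.5-fold call. Col3a1, the single chain of type III collagen and a fibril partner of type I in young granulation tissue (chromosome 1, 45311538 to 45349706), was 1668 CPM in day 4 oral mucosa, 424 CPM in unwounded oral mucosa, 2188 CPM in day 4 facial skin and 1634 CPM in unwounded facial skin. It was called higher at day 4 in oral mucosa (1.98, 1.91 to 2.04) and not in facial skin (0.42, 0.39 to 0.45). Of the type I and III chains, Col3a1 was the one not called between the day 4 sections, with an oral over facial ratio of -0.39.

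Promoter windows of 300 bases, from 250 before to 50 after the annotated start, were available from RefSeq (GRCm38.p6) for 35 of the 44 genes. The windows of Col3a1 and Col1a2 are printed because these are the most abundant fibrillar genes with an entry and both were called higher at day 4 in oral mucosa and not in facial skin. Capitals mark the CCAAT box, the TATAAA string and the GGGCGG box, searched on both strands. A CCAAT box on the other strand reads ATTGG here, and a GGGCGG box there reads CCGCCC. No marked motifs overlapped each other.
Col3a1 (chr1:45311288-45311587, plus strand): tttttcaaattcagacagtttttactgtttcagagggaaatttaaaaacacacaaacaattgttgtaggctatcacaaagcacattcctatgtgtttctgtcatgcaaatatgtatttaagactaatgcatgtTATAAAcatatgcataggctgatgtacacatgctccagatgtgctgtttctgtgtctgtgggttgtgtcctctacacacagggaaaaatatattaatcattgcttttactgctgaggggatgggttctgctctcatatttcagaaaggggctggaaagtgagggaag
Col1a2 (chr6:4505368-4505667, plus strand): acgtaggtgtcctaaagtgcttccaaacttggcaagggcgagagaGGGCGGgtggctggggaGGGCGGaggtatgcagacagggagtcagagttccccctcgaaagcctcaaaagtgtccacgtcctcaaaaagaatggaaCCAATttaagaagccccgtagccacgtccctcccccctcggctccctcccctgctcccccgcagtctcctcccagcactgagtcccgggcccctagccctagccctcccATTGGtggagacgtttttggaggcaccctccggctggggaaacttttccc
The Col3a1 window held 1 TATAAA, 117 bases before the start, and neither of the other motifs. In the Col1a2 window there were 2 GGGCGG and 2 CCAAT, of which 1 was on the other strand. Across all 32851 windows CCAAT was found in 37.4%, TATAAA in 13.6% and GGGCGG in 35.7%. Among the 38 windows of collagen genes the shares were 34.2%, 13.2% and 60.5%. A match is a string of letters in the window and no evidence of binding.

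The type V chains, which sit inside type I fibrils and set their diameter, stood highest in day 4 facial skin, then in day 4 oral mucosa, unwounded facial skin and unwounded oral mucosa, for all 3 genes. Col5a2 was 246 CPM in day 4 oral mucosa, 59.0 CPM in unwounded oral mucosa, 258 CPM in day 4 facial skin and 218 CPM in unwounded facial skin, with day 4 over unwounded log2 ratios of 2.06 (1.89 to 2.23) and 0.24 (0.17 to 0.32). In oral mucosa at day 4 it lay within 1.05-fold of facial skin. Col5a1 was 190, 45.0, 279 and 147 CPM and was called higher at day 4 in oral mucosa (2.08) and in facial skin (0.92). Col5a3 was the least abundant of them, at 54.3, 25.7, 63.0 and 48.4 CPM, and was called higher at day 4 in oral mucosa (1.08) and not in facial skin (0.38). The remaining fibrillar chains were at or below 14.1 CPM. Col11a1, a type XI chain known from cartilage, was 13.2 CPM in day 4 facial skin and 3.18 CPM in unwounded facial skin (131 and 38 UMIs), a log2 ratio of 2.05 (1.52 to 2.61), and it had 3 and 2 UMIs in the day 4 and unwounded oral sections. Col27a1 was 14.1 CPM in day 4 facial skin and 5.61 CPM in unwounded facial skin, called higher at 1.33. Col11a2 and Col24a1 stayed at or below 2.21 CPM and were not called in any comparison. Summed over the class, the oral ratio was 2.11 and the facial ratio 0.62, a difference of 1.48 (1.44 to 1.53).

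Type IV collagen divided into an abundant pair of chains and 4 rare ones. Col4a1 and Col4a2 form the common basement membrane trimer of vessels, muscle and epithelia. Col4a1 (chromosome 8, 11198423 to 11312889) was 183 CPM in day 4 oral mucosa, 71.5 CPM in unwounded oral mucosa, 184 CPM in day 4 facial skin and 147 CPM in unwounded facial skin. Col4a2 (chromosome 8, 11312805 to 11449287) was 98.5, 45.3, 106 and 114 CPM in that order. Both were called higher at day 4 in oral mucosa, at 1.35 (1.18 to 1.53) for Col4a1 and 1.12 (0.89 to 1.35) for Col4a2. In facial skin neither was called, at 0.32 and -0.10. At day 4 the tissues could not be separated by counting error for either gene, with oral over facial ratios of -0.01 (-0.15 to 0.13) and -0.11 (-0.30 to 0.08). The genes lie head to head, and their annotated windows overlapped by 78 bases on opposite strands, with the starts used for the windows 21 bases apart. The Col4a1 window uses a start at 11312826, whereas the gene range given above ends at 11312889, so the distance depends on the annotation. Both windows are printed because the pair received the same calls in all 4 comparisons and shares this stretch, with motifs marked as above.
Col4a1 (chr8:11312777-11313076, minus strand): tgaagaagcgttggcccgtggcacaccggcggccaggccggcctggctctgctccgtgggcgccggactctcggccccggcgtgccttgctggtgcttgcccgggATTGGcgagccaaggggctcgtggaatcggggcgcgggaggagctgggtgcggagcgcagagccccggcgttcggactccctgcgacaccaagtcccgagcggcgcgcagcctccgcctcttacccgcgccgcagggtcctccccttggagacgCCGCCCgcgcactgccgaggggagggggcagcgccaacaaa
Col4a2 (chr8:11312555-11312854, plus strand): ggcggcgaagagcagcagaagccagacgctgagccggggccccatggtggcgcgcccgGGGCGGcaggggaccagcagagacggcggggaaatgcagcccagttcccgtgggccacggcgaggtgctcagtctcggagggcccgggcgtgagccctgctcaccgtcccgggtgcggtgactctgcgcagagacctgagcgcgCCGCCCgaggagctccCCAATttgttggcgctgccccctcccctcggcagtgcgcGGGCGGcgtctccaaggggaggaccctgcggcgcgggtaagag
Col4a1 held 1 CCAAT and 1 GGGCGG and Col4a2 held 1 CCAAT and 3 GGGCGG, while TATAAA occurred in neither window. Where genes overlap at their starts, as here and for Col4a3 with Col4a4, whether the counting used strand is not given in the sources used here.

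The rare type IV chains behaved differently. Col4a3 and Col4a4, chains of the basement membrane of kidney and some epithelia, were the 2 genes called lower at day 4 in facial skin. Col4a4 was 3.52 CPM in day 4 facial skin and 9.63 CPM in unwounded facial skin (35 and 115 UMIs), and 0.666 and 0.824 CPM in the day 4 and unwounded oral sections (2 and 6 UMIs). Col4a3 was 0.906 CPM in day 4 facial skin and 3.52 CPM in unwounded facial skin (9 and 42 UMIs). It had 2 UMIs in day 4 oral mucosa and 0 in unwounded oral mucosa. With those 0 UMIs set to the floor of 3, unwounded oral mucosa was 8.54-fold lower than unwounded facial skin. The interval of this log2 ratio reached up to -2.73, a smaller difference. Col4a5, an X-linked chain of epithelial basement membranes, was called higher at day 4 in facial skin, at 8.96 CPM against 4.27 CPM in unwounded skin. Its neighbour Col4a6 was 0.999 CPM in day 4 oral mucosa, 2.47 CPM in unwounded oral mucosa, 4.53 CPM in day 4 facial skin and 3.52 CPM in unwounded facial skin, and no wound call was made. Being X-linked, both genes stand beside the Xist difference given above, whose part was not tested. As a class, type IV stood at 0.13 (0.06 to 0.20) in facial skin and turned to -0.05, -0.18, -0.21 and -0.09 when part 1 or part 2 of the day 4 section, or part 2 or part 3 of the unwounded section, was left out.

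Type VI was the class in which both tissues showed nearly the same wound ratio, 1.10 (0.99 to 1.21) in oral mucosa and 1.04 (1.004 to 1.084) in facial skin, a difference of 0.06 (-0.06 to 0.18). With 1 part left out the log2 ratio of the sums ran from 0.74 to 1.43 in oral mucosa and from 0.59 to 1.46 in facial skin. TMM scaling shifted every ratio by -0.34 in oral mucosa and by 0.065 in facial skin, so the near equality rested on plain totals. The near equality was one of sums, not of chains. Col6a3, the long chain that carries the C5 domain cleaved to endotrophin (chromosome 1, 90766860 to 90844001), was 190 CPM in day 4 oral mucosa, 34.0 CPM in unwounded oral mucosa, 813 CPM in day 4 facial skin and 311 CPM in unwounded facial skin. It was called higher at day 4 in oral mucosa (2.48, 2.27 to 2.70) and in facial skin (1.39, 1.33 to 1.44), and lower in oral mucosa than in facial skin unwounded (-3.19) and at day 4 (-2.09). Col6a2, a short partner chain, was 147, 98.01, 296 and 165 CPM, with ratios of 0.59 (0.41 to 0.76) in oral mucosa and 0.84 (0.76 to 0.93) in facial skin. Col6a1, the other short chain, was 73.6, 59.2, 261 and 191 CPM and was not called in either wound comparison. The 3 alternative alpha3-like chains were rare. Col6a6 was 2.996 and 1.373 CPM in the day 4 and unwounded oral sections and 8.86 and 1.51 CPM in the day 4 and unwounded facial sections, with 88 and 18 UMIs in the facial pair and a log2 ratio of 2.55 (1.81 to 3.37). Col6a5 had at most 15 UMIs in a section and Col6a4 at most 4.

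Among network collagens, Col8a1, an endothelial and smooth muscle matrix chain, was the single collagen called higher in oral mucosa at day 4 than in facial skin at day 4. It was 36.3 CPM in day 4 oral mucosa, 8.92 CPM in unwounded oral mucosa, 15.1 CPM in day 4 facial skin and 7.12 CPM in unwounded facial skin. Its day 4 over unwounded ratios were 2.02 (1.57 to 2.49) in oral mucosa and 1.08 (0.69 to 1.49) in facial skin, and the oral over facial ratio at day 4 was 1.26 (0.90 to 1.63). That last ratio rested on part 2 of the day 4 oral section, without which it was -0.17. Col8a2, its partner, was 4.33, 3.84, 5.44 and 5.36 CPM and was called in no comparison.

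The fibril-associated class was carried by 3 genes. Col12a1, a chain of stretched and healing connective tissue, was 70.6 CPM in day 4 oral mucosa, 16.1 CPM in unwounded oral mucosa, 122 CPM in day 4 facial skin and 75.7 CPM in unwounded facial skin. It was called higher at day 4 in both tissues, at 2.14 (1.80 to 2.47) and 0.69 (0.56 to 0.81), but the oral ratio was 0.50 without part 2 and 2.91 without part 3 of the day 4 section, and the facial ratio was 0.07 without part 1 and 1.16 without part 3 of the day 4 section. Col14a1, which binds decorin on mature fibrils, was 70.2, 47.5, 111 and 54.2 CPM and showed its larger ratio in facial skin, with a facial ratio of 1.04 (0.90 to 1.18) that was called and an oral ratio of 0.56 (0.31 to 0.82) that was not, a difference of -0.47 (-0.76 to -0.19). The facial Col14a1 ratio was 0.57 without part 2 of the day 4 section and 0.54 without part 2 of the unwounded section, close to the oral ratio. Col16a1, found near the dermal-epidermal junction, was 32.0, 14.96, 129 and 85.0 CPM, called higher at day 4 in both tissues and lower in oral mucosa than in facial skin at both times. Col20a1 was the single collagen called higher in unwounded oral mucosa than in unwounded facial skin, at 4.80 CPM against 1.93 CPM (35 and 23 UMIs, log2 ratio 1.32). The ratio was 0.22 in spots with under 1% skeletal muscle markers and 0.39 as a mean over spots, and it was not called in either. Col20a1 was 4.66 CPM in day 4 oral mucosa and 1.91 CPM in day 4 facial skin, a ratio of 1.28 (0.18 to 2.36) that was not called. Col9a3 had at most 13 UMIs and Col22a1 at most 6 in a section.

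In the basement membrane zone, Col18a1, the heparan sulfate collagen whose end fragment is endostatin, was 113 CPM in day 4 oral mucosa, 32.8 CPM in unwounded oral mucosa, 126 CPM in day 4 facial skin and 91.5 CPM in unwounded facial skin. It was called at day 4 in oral mucosa (1.79, 1.54 to 2.03) and not in facial skin (0.46, 0.35 to 0.58). Its relative Col15a1, of vessel and muscle basement membranes, showed the larger ratio in facial skin, at 58.3 CPM against 32.3 CPM in oral mucosa (0.85, 0.56 to 1.14) and 75.5 CPM against 33.0 CPM in facial skin (1.19, 1.02 to 1.37), day 4 against unwounded, a difference of -0.34 (-0.67 to -0.01). With 1 part of a section left out, the Col15a1 ratio ran from 0.30 to 1.34 in oral mucosa and from 0.80 to 1.53 in facial skin. These ranges overlapped, so the order of the tissues depended on the part used. As a mean over spots, the oral ratio of Col15a1 turned to -0.40. Col7a1, the anchoring fibril that fastens epidermis to dermis, was 15.6, 9.06, 80.5 and 57.3 CPM. It was called lower in oral mucosa than in facial skin both unwounded (-2.66, -3.05 to -2.29) and at day 4 (-2.36, -2.82 to -1.94).

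The transmembrane collagens were mostly Col17a1, the hemidesmosome collagen of basal keratinocytes (chromosome 19, 47646341 to 47692042). It was 121 CPM in day 4 oral mucosa, 76.7 CPM in unwounded oral mucosa, 311 CPM in day 4 facial skin and 328 CPM in unwounded facial skin. Its oral ratio of 0.66 (0.46 to 0.85) was called, but it was -0.01 without part 4 of the unwounded section and -0.81 as a mean over spots. The facial ratio was -0.08 (-0.14 to -0.01). The 8 basal keratinocyte markers summed to 4656 CPM in day 4 oral mucosa, 2798 CPM in unwounded oral mucosa, 13115 CPM in day 4 facial skin and 14596 CPM in unwounded facial skin, the same order as Col17a1, and their part in the result was not tested. Col23a1 was 4.66, 2.33, 17.4 and 21.6 CPM and was lower in oral mucosa than in facial skin at both times. Col13a1 was called lower in unwounded oral mucosa than in unwounded facial skin, with 3 and 34 UMIs. Col25a1 had at most 3 UMIs in a section, and of the 2 remaining genes Col26a1 had at most 11 and Col28a1 at most 7.

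Ratios of chains within a section do not depend on the section total. Col1a1 had 0.788 UMIs per Col3a1 UMI in day 4 oral mucosa (0.756 to 0.822), 0.451 in unwounded oral tissue (0.423 to 0.480), 1.73 in day 4 facial skin (1.71 to 1.76) and 1.13 in unwounded facial skin (1.11 to 1.15). Col3a1 UMIs therefore outnumbered Col1a1 UMIs in both oral sections and not in the facial ones, but the day 4 oral ratio was 1.06 without part 3 of the section. Within the day 4 oral section the ratio varied between parts from 0.413 to 1.12, a range that overlapped that of unwounded facial skin (1.01 to 1.28), whereas in unwounded oral mucosa it was 0.439 and 0.470 in the 2 parts with enough UMIs. Per Col1a2 UMI, Col1a1 had 1.32 in day 4 oral mucosa, 0.653 in unwounded oral tissue, 2.26 in day 4 facial skin and 1.24 in unwounded facial skin. Col6a3 per Col6a1 UMI was 2.59 in day 4 oral mucosa, 0.575 in unwounded oral tissue, 3.11 in day 4 facial skin and 1.63 in unwounded facial skin, so it was higher at day 4 in each tissue. The Col4a1 to Col4a2 ratio was 1.85, 1.58, 1.74 and 1.296, with intervals of the oral sections that overlapped. Col12a1 per Col14a1 UMI was 1.005 in day 4 oral mucosa and 0.338 in unwounded oral mucosa, against 1.10 in day 4 facial skin and 1.40 in unwounded facial skin. These opposite directions in the 2 tissues were not tested, and no part was left out for this ratio. The oral direction may rest on part 2 of the day 4 section. Without that part the oral day 4 over unwounded log2 ratio of Col12a1 fell from 2.14 to 0.50. The day 4 oral over facial log2 ratio of Col14a1 then moved the other way, from -0.66 to -0.39.

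**Figure D3:**
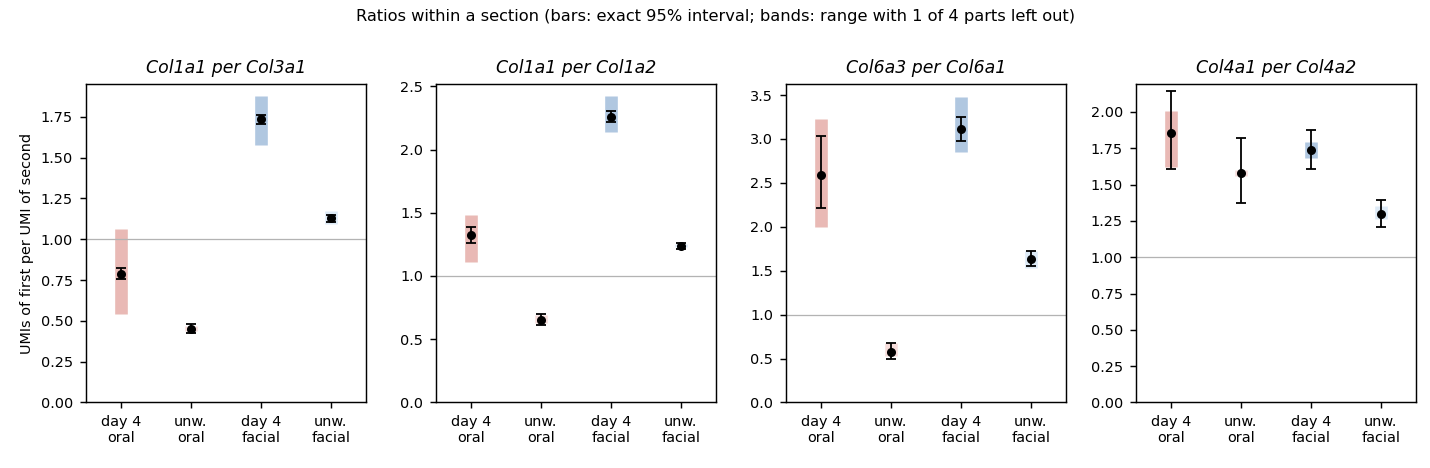
UMIs of one collagen gene per UMI of another in each section, for Col1a1 per Col3a1, Col1a1 per Col1a2, Col6a3 per Col6a1 and Col4a1 per Col4a2. Points are sections, bars exact 95% intervals and bands the range when 1 of 4 parts of the section is left out. Both day 4 sections lie above the unwounded section of their tissue in all 4 panels, and the band of the day 4 oral section is the widest in the first panel.

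Collagen RNA was concentrated in few spots. Among spots with at least 1000 UMIs (365 in day 4 oral mucosa, 523 in unwounded oral tissue, 1096 in day 4 facial skin and 653 in unwounded facial skin), the median share of collagen in a spot's UMIs was 0.469%, 0.131%, 1.62% and 0.448%. The highest spot held 5.67% in day 4 oral mucosa, 1.67% in unwounded oral tissue, 7.35% in day 4 facial skin and 6.36% in unwounded facial skin. The tenth of spots with the most collagen UMIs, ranked by count and not by share, held 39.1%, 32.7%, 36.5% and 42.1% of a section's collagen UMIs. The same spots held 10.4%, 11.8%, 9.12% and 12.7% of all its UMIs. A spot's collagen share resembled that of its neighbours, with Spearman's rho of 0.85, 0.58, 0.96 and 0.87 over the 360, 521, 1094 and 649 spots that have neighbours, while UMIs per spot gave 0.74, 0.48, 0.83 and 0.62. Spots of a section share a library and differ in depth, so these are descriptions.

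**Figure D4:**
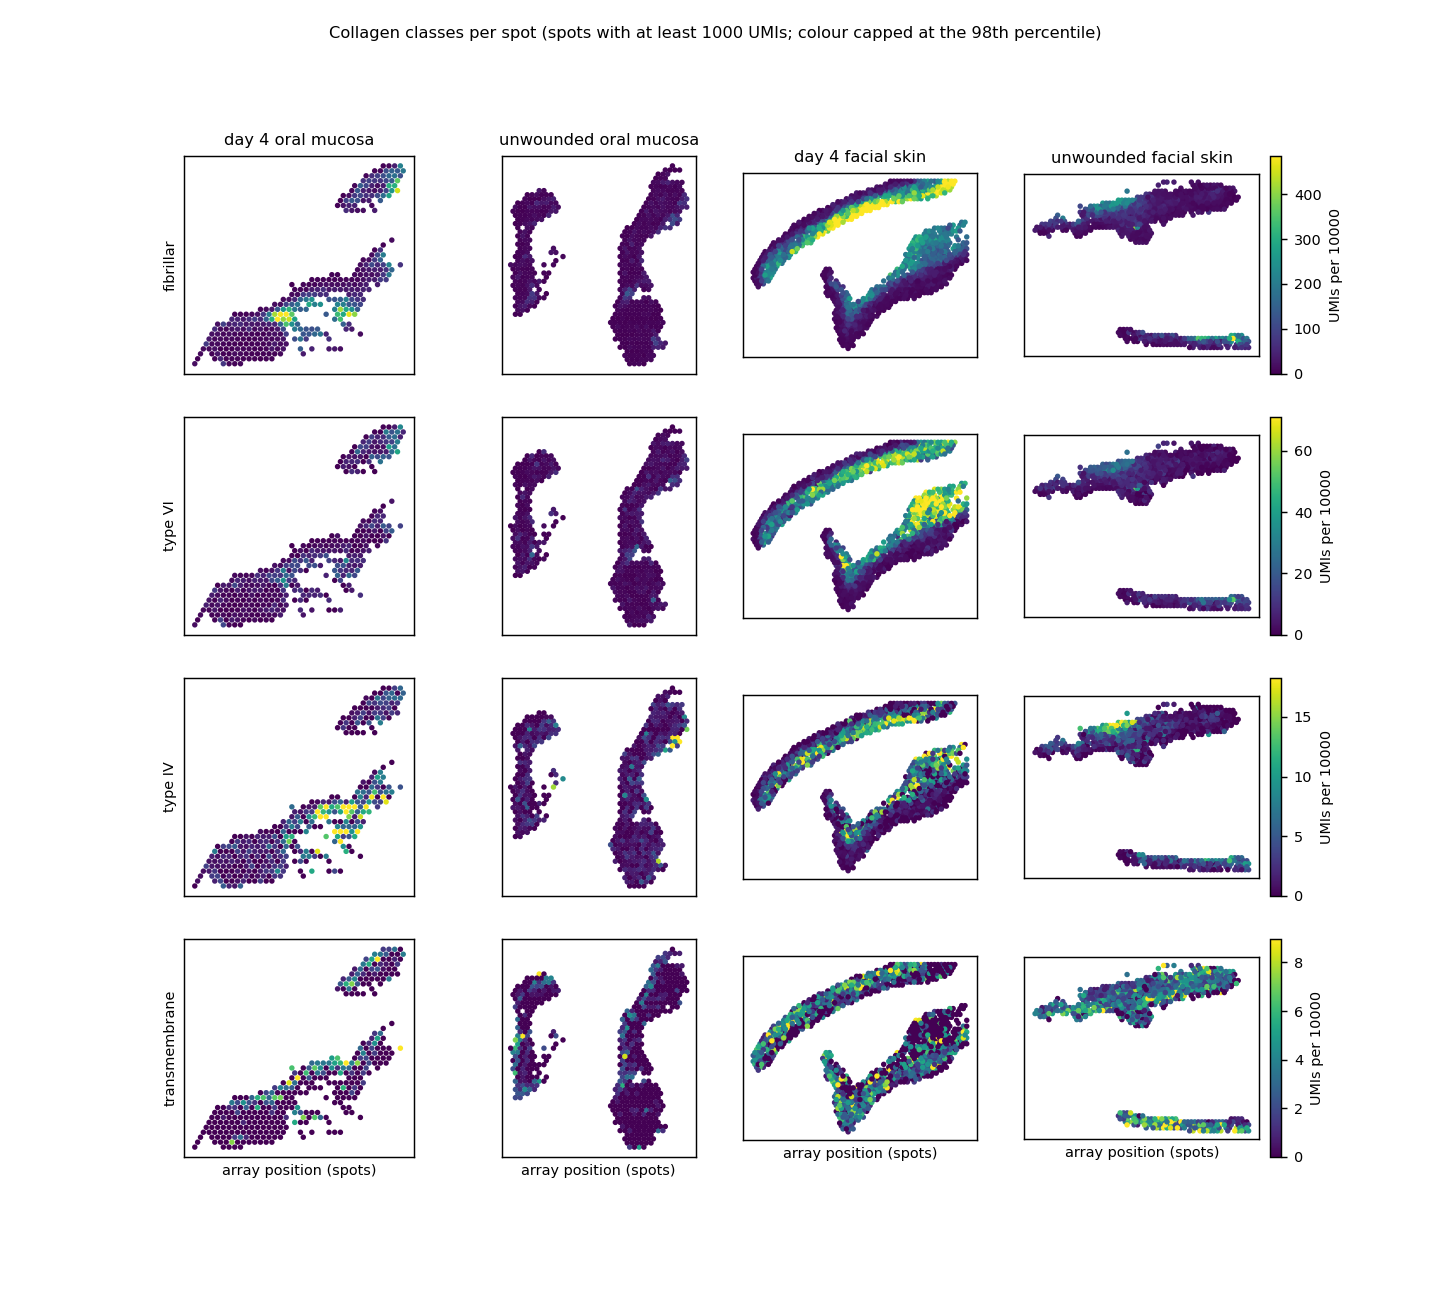
Maps of the fibrillar, type VI, type IV and transmembrane collagen UMIs per 10000 UMIs in each spot with at least 1000 UMIs, by array position, with day 4 oral, unwounded oral, day 4 facial and unwounded facial sections from left to right. Colour is shared along a row and capped at the 98th percentile. Fibrillar UMIs are bright along one face of the tissue in day 4 facial skin and in a few patches of day 4 oral mucosa, and transmembrane UMIs follow other spots.

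Spots were grouped into regions within each section without using collagen genes, and regions are called here by their leading genes. The highest region of a gene is the one of highest CPM, whether or not counting intervals of regions overlapped. In day 4 facial skin the region led by Cxcl5, Spp1, S100a9 and Cthrc1 (97 spots) held the most collagen, 51648 CPM, or 29.4% of the section's collagen in 6.22% of its UMIs. It was followed by the region led by Myh4, H19, Myl4 and Myh3 (54 spots), genes of immature muscle among them, at 46777 CPM. The region led by late cornified envelope genes such as Lce1h was lowest, at 1515 CPM. Of 22 collagen genes with enough UMIs in that section, 7 were highest in the Cxcl5-led region, namely Col1a1, Col3a1, Col5a2, Col6a3, Col12a1, Col15a1 and Col8a1. Another 10, among them Col1a2, Col4a1, Col4a2, Col6a1, Col6a2 and Col14a1, were highest in the Myh4-led region. Col8a1 had 55.4% of its section UMIs and Col12a1 42.9% in the Cxcl5-led region, which held 6.22% of all UMIs. Col14a1 had 13.5% in the Myh4-led one, which held 2.21% of all UMIs. Col11a1, Col27a1 and Col23a1 were highest in a region led by Cfd, Car3, Hp and Lhx2, which held 61.1% of Col11a1 UMIs in 16.1% of all UMIs. Both Col7a1 and Col17a1 were highest in a region led by Stfa3, in which suprabasal epithelial markers made up 5.71% of UMIs.

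In unwounded facial skin 18 of 20 collagen genes were highest in a single region, led by the muscle genes Acta1, Cryab and Myh1 (63 spots), which held 26443 CPM of collagen and 37.3% of the section's collagen in 10.0% of its UMIs. Fibroblast markers made up 0.704% of UMIs there and skeletal muscle markers 1.08%. Col17a1 and Col7a1 were highest in the regions led by Fcgbp (431 CPM) and by 2610528A11Rik and Areg (73.8 CPM). The region of high neutrophil markers held 2770 CPM of collagen over 29 spots, 0.513% of the section's collagen.

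Collagen in the oral day 4 section was spread over 4 regions of similar level. The region led by Chil4, Eln and Ccl21a (48 spots) held 11584 CPM and the largest share of the section's collagen, 23.0% in 11.1% of its UMIs. A region led by Reg3g, Spp1, Thbs1 and Ccl2 (67 spots) held 14696 CPM, the region led by the salivary genes Dcpp1 and Dcpp2 (42 spots) held 14676 CPM and a region led by Mybph, Myh4, Ankrd1 and Postn (27 spots) held 13749 CPM. The Reg3g-led region was highest for 7 of 17 collagen genes, which were Col4a1, Col4a2, Col15a1, Col18a1, Col1a2, Col5a1 and Col5a2. The Mybph-led region was highest for 6, Col1a1, Col6a1, Col6a2, Col6a3, Col12a1 and Col8a1, and held 42.6% of Col8a1 and 39.9% of Col12a1 UMIs in 8.45% of all UMIs. In the Dcpp1-led region Col3a1, Col5a3 and Col14a1 were highest, the last 2 with wide counting intervals (73.9 to 227 CPM and 148 to 345 CPM). Col1a1 per Col3a1 UMI differed between these regions, at 0.913 in the Reg3g-led region, 0.577 in the Dcpp1-led region and 1.22 in the Mybph-led region. Type IV was 16.2% of collagen in the region led by Ppbp and Krt17, against 2.06% in the Mybph-led region. At a finer clustering (resolution 1) the highest collagen level of the section was 35126 CPM, in a region of 12 spots led by Sfrp4, Sfrp2 and Mmp3, with the next region at 14696 CPM, and the fold between its highest and lowest region was 37.7. In unwounded oral mucosa 16 of 17 genes were highest in a region led by Cfd, Acta2, Cytl1, Tagln and Myh11 (69 spots) at 5978 CPM, and the other 5 regions held 817 to 1674 CPM. Col17a1 was the exception, with 76.9% of its UMIs in the region led by Kprp and Lce1d.

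**Figure D5:**
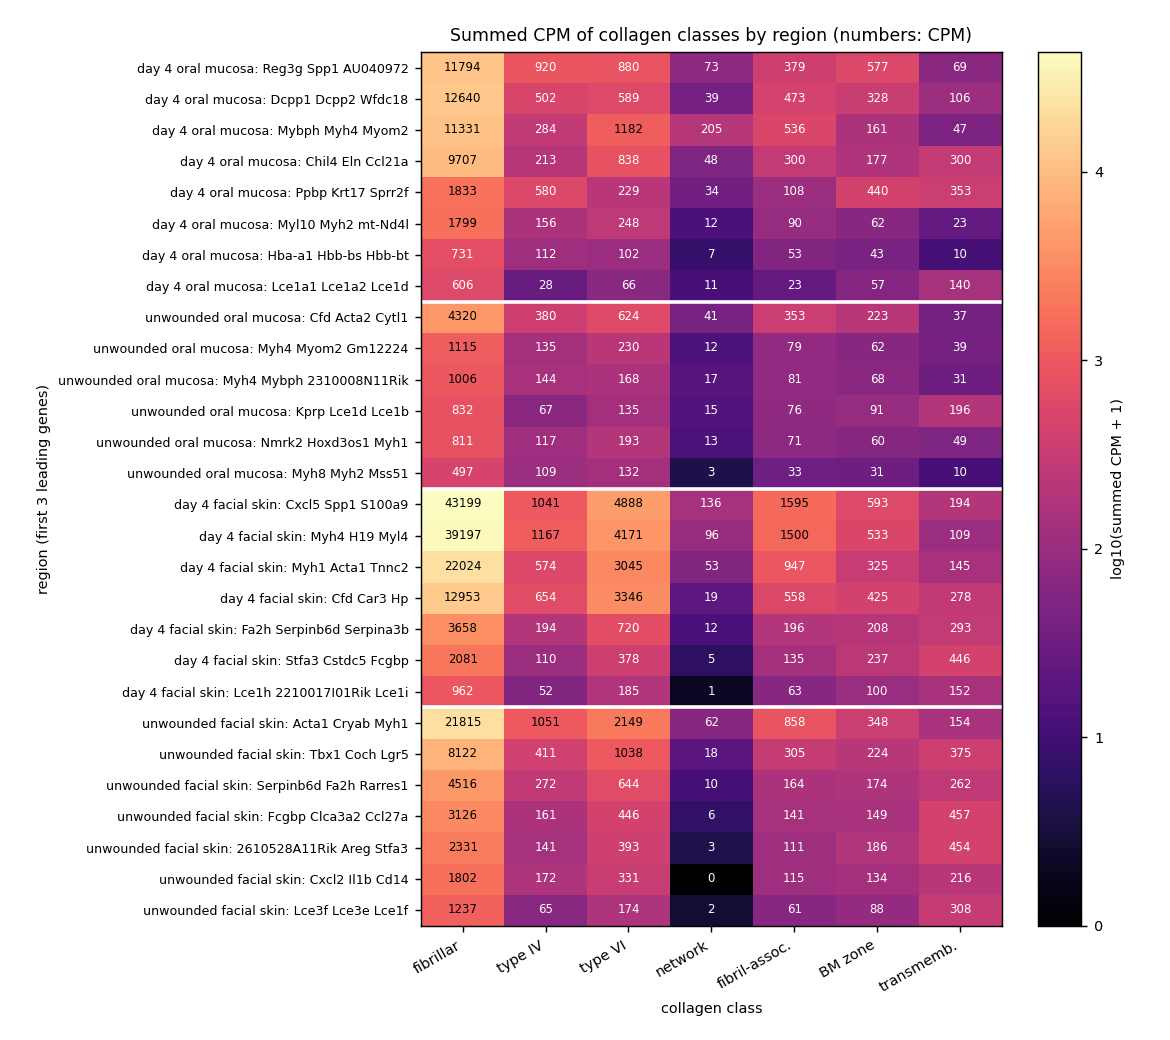
Summed CPM of 7 collagen classes in the regions of each section, regions named by their first 3 leading genes, with colour on a log10 scale and the CPM printed in each cell. The brightest fibrillar cells are the Cxcl5-led (43199 CPM) and Myh4-led (39197 CPM) regions of day 4 facial skin, and the transmembrane column is highest in regions of both facial sections led by Fcgbp (457 CPM), 2610528A11Rik (454 CPM) and Stfa3 (446 CPM).

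Across spots, the fibrillar class followed fibroblast markers in all 4 sections, and the transmembrane class followed basal keratinocyte markers less closely. Spearman's rho of fibrillar share with the 10 fibroblast markers was 0.86 in day 4 oral mucosa, 0.82 in unwounded oral tissue, 0.88 in day 4 facial skin and 0.87 in unwounded facial skin, and 0.76, 0.50, 0.79 and 0.61 with every spot thinned to 1000 UMIs. Type IV gave 0.42, 0.41, 0.58 and 0.71 with fibroblast markers and 0.43, 0.32, 0.44 and 0.54 with endothelial markers. The transmembrane class gave 0.54, 0.51, 0.47 and 0.41 with basal keratinocyte markers, and 0.30, 0.19, 0.18 and 0.19 after thinning. Among pairs of genes, Col1a1 with Col1a2 reached 0.84 in day 4 oral mucosa, 0.57 in unwounded oral tissue, 0.89 in day 4 facial skin and 0.89 in unwounded facial skin. The Col4a1 and Col4a2 pair, though partners in one trimer, gave 0.34, 0.23, 0.35 and 0.50 at their lower counts. In day 4 facial skin Col7a1 ran against Col1a1 and against Col3a1, at -0.35 each.

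Genes that make, process and bind collagen were taken from 5 lists of 54 genes, to be read against the 20.6% and 6.09% of all genes called higher at day 4 in oral mucosa and facial skin. For synthesis and processing (21 genes), 9 of 19 measured genes were called higher and 0 lower at day 4 in oral mucosa, and 4 higher and 3 lower of 20 in facial skin. Serpinh1, the collagen chaperone HSP47, was 284 CPM in day 4 oral mucosa and 138 CPM in unwounded oral mucosa (1.04, 0.90 to 1.17), and 447 CPM in day 4 facial skin and 267 CPM in unwounded facial skin (0.74, 0.68 to 0.81). Plod2, the telopeptide lysyl hydroxylase, was 13.6 CPM in day 4 oral mucosa and 2.75 CPM in unwounded oral mucosa. P4hb, the beta subunit of prolyl 4-hydroxylase, was called lower at day 4 in facial skin, at 420.1 CPM against 649 CPM. The median log2 ratio of the measured genes was 0.50 in oral mucosa and -0.16 in facial skin, beside 0.17 and -0.03 over all genes.

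Cross-linking enzymes of the lysyl oxidase family were called higher at day 4 in oral mucosa in 4 of 4 measured genes and in facial skin in 0 of 5. Lox was 81.6 CPM in day 4 oral mucosa and 4.94 CPM in unwounded oral mucosa, a log2 ratio of 4.04 (3.54 to 4.59), and 96.2 CPM in day 4 facial skin and 88.9 CPM in unwounded facial skin, a ratio of 0.11 (-0.01 to 0.24). Between unwounded tissues Lox was lower in oral mucosa at -4.17 (-4.69 to -3.69), while at day 4 the ratio was -0.24. Fibril partners were called higher in 6 of 11 genes in oral mucosa and in 6 of 12 in facial skin, where 2 were lower. Fn1, the fibronectin on which fibrils assemble, was 586 CPM in day 4 oral mucosa, 106 CPM in unwounded oral mucosa, 288 CPM in day 4 facial skin and 131 CPM in unwounded facial skin. Lum, a fibril-spacing proteoglycan, was 263 CPM in day 4 oral mucosa and 57.5 CPM in unwounded oral mucosa.

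Collagen receptors and uptake genes had 2 of 8 called higher and 1 lower at day 4 in oral mucosa, and 0 higher and 2 lower of 9 in facial skin. Mrc2, the endocytic collagen receptor, was 36.6 CPM in day 4 oral mucosa and 9.06 CPM in unwounded oral mucosa, and Ddr1, an epithelial collagen receptor kinase, was 35.3 CPM and 66.2 CPM in the same sections. Collagenases were called higher in 3 of 4 genes at day 4 in oral mucosa and lower in 2 of 6 in facial skin. Mmp9, a gelatinase carried by neutrophils, was 58.3 CPM in day 4 oral mucosa and 0.824 CPM in unwounded oral mucosa, and 12.5 CPM in day 4 facial skin and 27.0 CPM in unwounded facial skin (21.1 CPM without the region of highest neutrophil markers). Mmp9 is itself among the neutrophil markers, so their sums include it. Neutrophil markers had the same order, with 3787 CPM in day 4 oral mucosa, 39.8 CPM in unwounded oral mucosa, 281 CPM in day 4 facial skin and 6015 CPM in unwounded facial skin, apart from the order of the day 4 oral and unwounded facial sections. The part of neutrophils in the Mmp9 values was not tested. Ctsk, the collagen-cleaving cathepsin K, was 5.63 CPM in unwounded oral mucosa and 234 CPM in unwounded facial skin. Over the 5 lists, unwounded oral mucosa had 16 of 20 synthesis, 4 of 5 cross-linking, 7 of 12 partner, 6 of 9 receptor and 6 of 6 collagenase genes called lower than unwounded facial skin and 0 called higher, where 59.7% of all genes were called lower. At day 4, 5 of 20, 1 of 4, 2 of 12, 2 of 8 and 3 of 5 genes of these lists were called lower in oral mucosa and 1 in each list higher, among them Plod2, Fn1 and Mmp9, where 35.5% of all genes were called lower and 11.5% higher.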

How the data were processed

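The deposited matrices hold UMI counts per gene and spot, which per the file headers were made by the authors' run of Space Ranger 1.3.1. Seurat and the mm10 build are listed too, per the submitters' processing notes. Aligner settings and annotation release: not given in the sources used here. Counts of spots in the filtered matrices were summed per section and divided by the section total (CPM), 3004174 to 11939479 UMIs per section. Members and gene lists were chosen with earlier results of these data known. Ratios carry exact conditional 95% intervals, which cover counting error only. Each gene was called over the whole table (1.5-fold, intervals apart, 20 UMIs), and the caller was tested on simulated counts. With 1 section per group no test across samples was possible.

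Named genes were, per class, the 2 most abundant (4 for fibrillar), their partner chains and the 3 highest and 3 lowest ratios per comparison. Named genes of the 5 related lists were at most 4 per list and comparison. Other members are given by their levels to account for all 44, and were named after their values were seen.

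Spots with at least 1000 UMIs were scaled to 10000 UMIs and clustered per section without collagen genes (scanpy 1.11.5, 2000 variable genes, 30 components, 15 neighbours, Leiden resolution 0.5), and regions are called by leading genes. A Visium spot can hold several cells of different types. Parts are the 4 quadrants of a section at the median array row and column of all its spots, also those with few UMIs. In unwounded oral mucosa parts 1 and 2 held few Col1a1 and Col3a1 UMIs, so leaving out either was a weak check. Alternatives were TMM totals (edgeR 4.0.16), totals without mitochondrial and the 50 most abundant genes, means over spots, spot and muscle filters, UMI minimums of 100 and 1, a 2-fold threshold, a region left out, spots thinned to 1000 UMIs, resolution 1 and parts left out. Python 3.11.15, scipy 1.17.1, numpy 2.4.6, pandas 2.3.3 and R 4.3.3 were used. Symbols were matched to RefSeq for positions and promoters (GRCm38.p6).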

Additional observations from a re-analysis of the deposited data

Results flagged for a closer look

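The summed transmembrane class and Col17a1 within it had wound ratios of opposite sign in the 2 tissues, with both counting intervals apart from 0. The class stood at 0.69 in oral mucosa and -0.094 in facial skin (log2, day 4 over unwounded). Col17a1 stood at 0.66 in oral mucosa and -0.076 in facial skin. With 1 section per group the difference was not tested, and the oral value of Col17a1 was -0.81 as a mean over spots and -0.012 without part 4 of the unwounded section.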

How the results depend on the processing

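No paired analysis was possible because each group held 1 section. The summed log2 ratio of day 4 over unwounded oral mucosa was 1.49 with TMM totals, 1.64 without mitochondrial and the 50 most abundant genes, 1.94 as a mean over spots, 2.06 in spots with under 1% skeletal muscle markers, 1.75 without the salivary region, 1.24 per fibroblast-marker UMI (an alternative chosen after seeing the data) and 1.52 to 2.18 with 1 of 4 parts left out. For facial skin it was 0.69 with TMM, 0.67 without those abundant genes, 1.40 as a mean over spots, 0.64 per fibroblast-marker UMI and 0.28 to 1.03 with a part left out. Unwounded oral over facial tissue gave -1.38, -1.72, -1.59 and -1.47 in the same settings and -2.49 to -1.74 with a part left out. Day 4 oral over facial tissue gave -0.58, -0.75, -1.05 and -0.87, then -0.71 in spots of low muscle, -1.03 without the salivary region and -1.35 to -0.59 with a part left out. The oral minus facial wound difference was 0.80, 0.96, 0.54 and 0.60, then 1.43 and 1.12, and 0.79 to 1.55 with a part left out. All of these kept their direction. Called collagen genes in oral mucosa numbered 10 per fibroblast-marker UMI against 16, and the share of all genes called was not computed for the former.

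Directions turned in a few cases. As means over spots, where the 652 spots of unwounded oral mucosa under 100 UMIs weigh as much as deep ones, Col15a1 (-0.40) and Col17a1 (-0.81) turned in the oral wound comparison, and the fibril-associated class (0.28) and Col4a4 (0.22) between unwounded tissues. Col6a2 was -0.0018 per fibroblast-marker UMI in the oral wound comparison and 0.013 with TMM between unwounded tissues. With a part left out, Col17a1 ranged from -0.012 to 1.47 in oral mucosa, type IV from -0.21 to 0.69 in facial skin, and between tissues at day 4 the network class from -0.38 to 1.62, Col8a1 from -0.17 to 1.92 and type IV from -0.72 to 0.35. Between unwounded tissues the network class ran from -0.42 to 1.23. Over single-gene ratios and settings other than left-out parts, 304 values stayed within the counting interval of the reported value, 186 lay outside it in the same direction and 5 turned. The cause was not tested. Genes with few UMIs are limited by depth: at 3 UMIs the floor lies between 0.251 and 0.999 CPM.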
